A study of Canis lupus familiaris with 12 samples.

Results

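Concanavalin A (ConA), a plant lectin, was compared here with no addition in cultured canine peripheral blood mononuclear cells (PBMCs), the lymphocytes and monocytes of blood. The comparison takes 6 of the 12 libraries of the series, chosen by their titles: 3 with ConA at 0.5 µg/ml and no other agent, and 3 with neither ConA nor 5-aminolevulinic acid (ALA). Both groups were PBMCs of healthy male beagles, separated on a density gradient, kept in RPMI1640 medium with serum and 2-mercaptoethanol, and harvested after 24 h. The other 6 libraries, with ALA at 1 mM alone or with ConA, added to the estimate of the spread. They also gave a second ConA contrast and entered the test of whether the ConA change differed between library numbers. Libraries are numbered 1 to 3 in every group, and ConA and untreated libraries of the same number were treated as a pair. Nothing in the labels says whether each number was a different dog, and the p-values therefore cover the variation among these libraries alone, part of which may be technical.

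ConA binds sugar chains on surface glycoproteins and clusters receptors, the T cell receptor complex among them, so that many T cell clones are driven to respond at once, whatever antigen they recognise. Activated T cells are known to switch on receptors for growth and costimulatory signals, leave the resting state, enlarge their protein-making machinery and enter division over the following days. Monocytes in the same culture bind the lectin too and meet the cytokines the T cells release, so a PBMC response to a mitogen is the response of a mixture.

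The 6 libraries held 15131294 to 21517099 exon reads. Their mitochondrially encoded share was 3.98, 12.7 and 13.1% in untreated libraries 1, 2 and 3 and 4.48, 23.3 and 17.2% with ConA. Between 12027 and 12810 genes had at least 10 reads, and the difference, ConA minus untreated, was −236, −504 and −595 genes in the 3 pairs. Untreated 3 stood apart from the other untreated libraries in some genes of activated and antibody-secreting cells. JCHAIN, the joining chain of secreted antibodies, had 36068 counts there against 4051 and 5100. IL17A, a cytokine of helper T cells, had 112 normalised counts scaled to library size (CPM) against 1.17 and 4.78. Other activation genes went both ways: IRF4 was higher there, at 92.6 CPM against 11.4 and 11.9. EGR1 was lower, at 4.01 CPM against 37.8 and 16.9, and LAG3, at 7.15, lay between 4.37 and 14.2. Where a result changed its call without untreated 3, the value without it is given.

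The response covered a large part of the expressed genes and was nearly even in its directions. Of 13358 genes tested 5676, or 42.5%, were called at an adjusted p under 0.05 (edgeR's quasi-likelihood test with the number as a block): 2839 rose (21.3%) and 2837 fell (21.2%). The median log2 fold change over all tested genes was −0.06. Of the genes that rose, 1292 exceeded a log2 fold change of 1, 324 of 2 and 112 of 3, and of those that fell 1464, 484 and 186 did so. The ConA and untreated libraries did not overlap in 4713 genes (35.3%). Without the block 2471 genes were called (18.5%), 1326 up (9.93%) and 1145 down (8.57%) and each of the 2471 was also called with it. Called rises were above 0 in 3 of 3 pairs in 2796 genes and called falls below 0 in 3 of 3 in 2805. Their median size was 1.09, 0.96 and 0.71 in pairs 1, 2 and 3 for rises and −1.12, −1.07 and −0.81 for falls, smallest in pair 3 both ways.

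**Figure D1:**
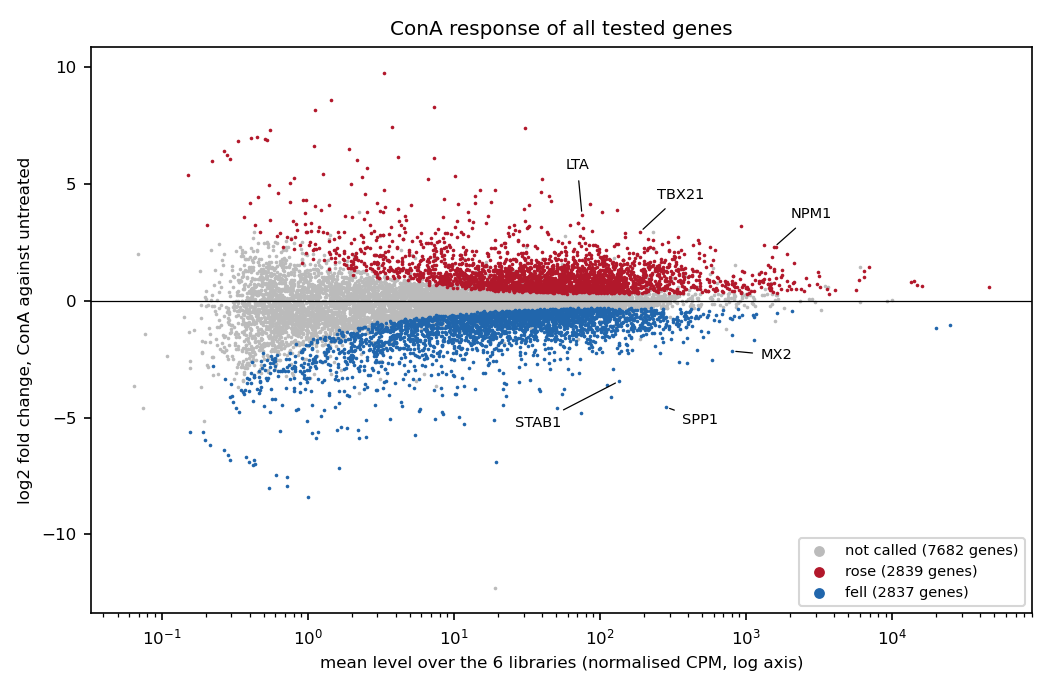
Log2 fold change of each of 13358 tested genes, ConA against untreated (vertical axis), against its mean normalised CPM over the 6 libraries (horizontal axis, log scale). Red points are the 2839 genes that rose, blue points the 2837 that fell and grey points those not called, and 6 genes described in the text are named.

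Abundant genes were called more often. Of 4 equal groups of genes by mean CPM the lowest had 17.8% called and the highest 64.7%, where 1355 rose and 805 fell. Protein-coding genes were called in 44.2% of 12477 and long noncoding RNAs in 18.2% of 823, of which 52 rose and 98 fell. None of 31 immunoglobulin V segments passed. Mitochondrially encoded genes aside, 213 genes held 50% of the summed gain in CPM and 192 held 50% of the summed loss. Among called genes with a symbol, the 10 largest of these gains in CPM included the chaperones HSP90AB1, HSP90AA1 and HSPA8, the ribosomal proteins RPS12 and RPS3A, the nucleolar proteins NPM1 and NCL, and the actin gene ACTB (0.45 ± 0.11 on the log2 scale, no block adjusted p = 0.36). The 10 largest losses included the interferon-inducible MX2, TRIM22 (−2.53 ± 0.35) and RNF213 (−1.55 ± 0.16), and the class II genes DLA-DRA and CD74. CD74, the class II chaperone, had a log2 change of −0.44 ± 0.14, a call lost without the block (0.53) and without untreated 2, untreated 3, ConA 2, number 2 or number 3 (0.085 to 0.25).

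**Figure D2:**
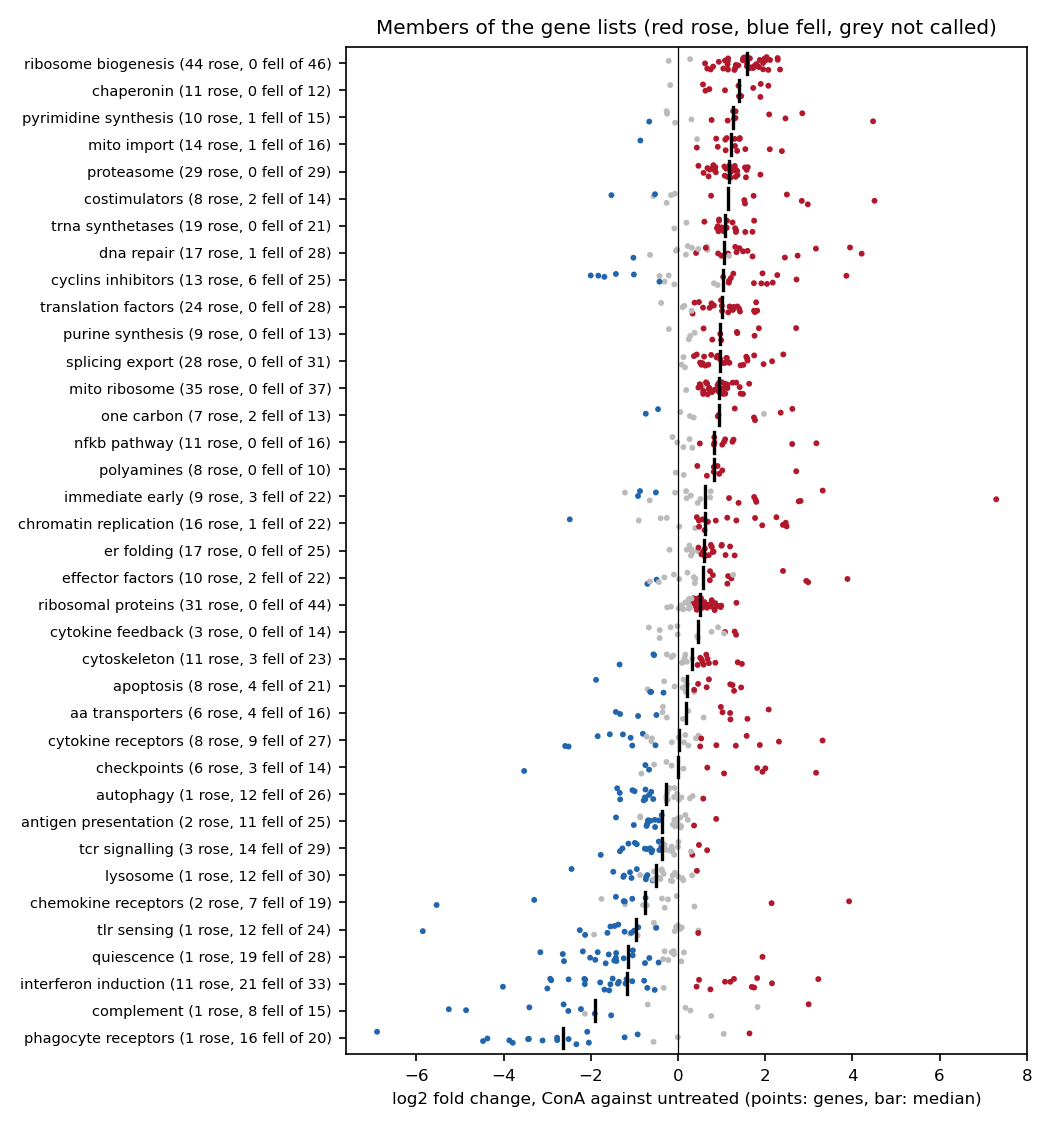
Log2 fold change of each tested member (points) of 37 gene lists, ConA against untreated, with the list median as a bar. Ribosome biogenesis has the highest median (1.58) and phagocyte receptors the lowest (−2.64), and the number of members that rose or fell is written beside each list.

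Receptors that deliver second signals to T cells mostly rose. Of 14 tested costimulatory receptors 8 rose and 2 fell (8 and 0 without the block), with a median log2 fold change of 1.14. ICOS, an inducible costimulator of the CD28 family (ENSCAFG00000012880, CanFam3.1 chromosome 37, 12670999 to 12733458, 9 annotated exons), stood at 30.1, 12.2 and 14.9 normalised CPM in untreated libraries 1, 2 and 3 and at 273, 98.9 and 98.2 with ConA. The groups did not overlap, and library 1 was the highest in both. The log2 fold change was 2.98 ± 0.18 (SE, adjusted p = 6.4e-08). TNFRSF9, a receptor of the TNF family that sustains T cell survival, was near the limit of detection in untreated cells, at 1.76, 0.841 and 0.640 CPM, and stood at 53.1, 12.3 and 14.8 with ConA (4.51 ± 0.30, adjusted p = 8.4e-08). CRTAM, an adhesion receptor of killer cells, went the other way, from 27.5, 122 and 69.6 CPM to 7.89, 45.4 and 26.9 (−1.53 ± 0.18). It fell in each pair, while the groups overlapped, and it was not called without the block (adjusted p = 0.22). TNFRSF25, another TNF receptor of T cells, fell by 0.53 ± 0.14 on the log2 scale, a call lost without the block (adjusted p = 0.51) and without ConA 1 (0.055).

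Inhibitory receptors split. Of 14 checkpoint genes 6 rose and 3 fell (4 and 1 without the block), with a median of −0.01, and without number 1 the count that rose was 3. Over all tested genes 21.3% rose and 21.2% fell, so the falls were near the general share. LAG3, which binds class II molecules and restrains T cells, stood at 4.37, 14.2 and 7.15 normalised CPM in untreated libraries 1, 2 and 3 and at 82.6, 73.7 and 56.7 with ConA (3.17 ± 0.45, adjusted p = 0.00069). CTLA4, which competes for the ligands of CD28, was at 52.3, 69.8 and 43.3 CPM and at 204, 245 and 179 with ConA (1.94 ± 0.13). The groups did not overlap in either gene. NT5E, the ectoenzyme that forms adenosine, fell from 7.34, 12.03 and 2.38 CPM to 0.0770, 1.27 and 0.711 (−3.53 ± 0.58, adjusted p = 0.00024), and BTLA fell by 0.75 ± 0.20, a call lost without the block (adjusted p = 0.061) and without number 2 (0.074).

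Cytokine receptors moved both ways, 8 up and 9 down of 27 with a median of 0.02. Among those down, CSF1R (−2.51 ± 0.26) and CSF3R (−2.59 ± 0.52) are also counted below as a monocyte and a neutrophil marker. Without the block 5 were up and 3 down, and without number 2 5 were up. IL2RA, the inducible chain of the interleukin-2 receptor, rose by 3.32 ± 0.36, IL12RB2, the receptor chain through which interleukin-12 signals, by 1.88 ± 0.21, and IL6ST, the shared chain of the interleukin-6 family receptors, by 1.58 ± 0.17. IL7R, which keeps resting T cells alive, fell from 109.6, 48.4 and 37.1 CPM to 23.0, 10.8 and 17.7 (−1.84 ± 0.20). The 3 ConA libraries lay below the 3 untreated ones. Of 19 receptors that guide migration 7 fell and 2 rose (2 and 0 without the block, 3 fell without number 1, and 1 rose without number 1 or number 2), with a median of −0.76. S1PR1, which lets lymphocytes leave lymphoid tissue, fell by 1.24 ± 0.16 and S1PR4 by 1.42 ± 0.17. CCR4, a receptor of skin-homing and type 2 helper cells, stood at 9.36, 3.62 and 2.21 and 46.6, 9.04 and 14.3 CPM and rose by 2.15 ± 0.28, higher in each pair, but was not called without the block (adjusted p = 0.069). The decoy receptor ACKR3 was the other that rose (3.93 ± 0.80), a call lost without the block (adjusted p = 0.1), without number 1 (0.11) and without number 2 (0.078). CCR7, which directs cells to lymph nodes, did not pass (0.38 ± 0.17, adjusted p = 0.093) and passed without untreated 1 (0.020) or ConA 2 (0.034).

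**Figure D3:**
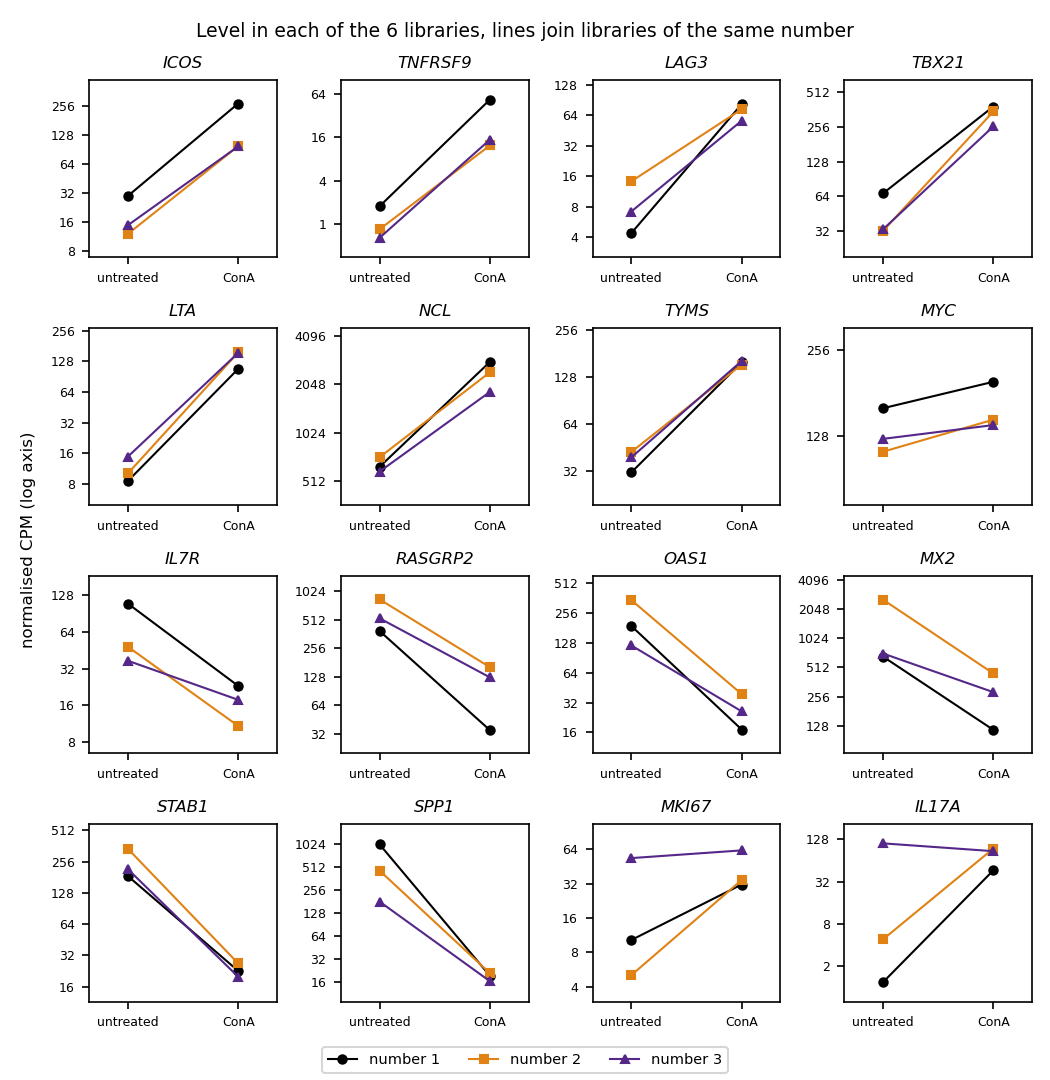
Normalised CPM (log axis) of 16 genes in untreated and ConA libraries, with lines joining libraries of the same number. The lines rise in ICOS, TNFRSF9, LAG3, TBX21, LTA, NCL, TYMS and MYC and descend in IL7R, RASGRP2, OAS1, MX2, STAB1 and SPP1, while IL17A and MKI67 start high in untreated 3.

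Transcription factors of early signalling and of effector cells mostly rose where they were called. Of 22 immediate early genes and companions 9 rose and 3 fell (8 and 0 without the block), with a median of 0.63. The orphan nuclear receptor NR4A3 stood at 6.39, 6.47 and 5.47 CPM untreated and 48.2, 42.9 and 34.3 with ConA (2.77 ± 0.20, adjusted p = 1.2e-07). The groups did not overlap. NR4A1 rose by 3.32 ± 0.29 and EGR2, a zinc finger factor, by 1.78 ± 0.17. IER2 fell by 0.92 ± 0.14 (no block, adjusted p = 0.057). The count that fell was 1 without untreated 2, untreated 3, ConA 1, ConA 2 or number 2.

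Of 22 factors of effector lymphocytes 10 rose and 2 fell (4 and 0 without the block), with a median of 0.57. TBX21, the factor of interferon gamma-producing cells (ENSCAFG00000016705, CanFam3.1 chromosome 9, 24077761 to 24086261, 6 annotated exons), stood at 67.9, 32.1 and 33.1 normalised CPM in untreated libraries 1, 2 and 3 and at 386, 349 and 259 with ConA (2.94 ± 0.20, adjusted p = 1.7e-07). BATF3, a partner of AP-1 factors, was at 5.72, 18.5 and 28.8 CPM and at 115, 356 and 264 with ConA (3.89 ± 0.33). In both genes the groups did not overlap. PRDM1, which drives terminal differentiation of T and plasma cells, was at 231 CPM in untreated 3 against 57.6 and 56.5, and stood at 148, 194 and 327 with ConA. It rose by 1.22 ± 0.20 (adjusted p = 0.00026), though not without the block (adjusted p = 0.36). IRF4, whose level follows the strength of antigen receptor signals, was at 11.4, 11.9 and 92.6 CPM untreated and 143, 112 and 137 with ConA. Its rise of 2.41 ± 0.70 (adjusted p = 0.033) was lost without the block (0.15) and without untreated 1, untreated 2, ConA 1, ConA 2, number 1 or number 2 (0.090 to 0.25). GATA3, the factor of type 2 helper cells, and BCL6, of follicular helper cells, were the 2 that fell (−0.70 ± 0.21 and −0.49 ± 0.19). Both calls were lost without the block (adjusted p = 0.32 and 0.59) and in several of the fits that left out 1 library or number: GATA3 without untreated 1, ConA 1, number 1 or number 2 (0.093 to 0.27), and BCL6 without untreated 3, any ConA library or any number (0.075 to 0.36).

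The NF-kappaB pathway, which couples antigen and TNF receptors to survival genes, moved in 1 direction among those called: 11 of 16 genes rose and 0 fell, with a median of 0.83. BIRC3, an inhibitor of apoptosis, was at 70.8, 117 and 236 CPM and at 828, 648 and 925 with ConA (2.62 ± 0.29). The groups did not overlap, and untreated 3 was the highest untreated library. The precursor subunit NFKB1 rose by 1.08 ± 0.13 and the inhibitor NFKBIB by 1.25 ± 0.17. Over all tested genes 21.3% rose with the block and 9.93% without it. Rises among feedback inhibitors of cytokine signalling were close to that share. Of 14 such genes 3 rose and 0 fell (1 rose without the block, 5 without untreated 3 and by DESeq2), with a median of 0.45. They were DUSP4 (1.30 ± 0.25), CISH (1.33 ± 0.22; no block, adjusted p = 0.093) and SOCS1 (1.08 ± 0.25; no block, adjusted p = 0.11, and 0.087 without number 2).

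Genes of the resting state fell together. Of 28 such genes 19 fell and 1 rose (15 and 1 without the block), with a median of −1.14. RASGRP2, an activator of the small GTPase RAP1 (ENSCAFG00000014309, CanFam3.1 chromosome 18, 52412367 to 52426916, 22 annotated exons), stood at 388, 834 and 527 normalised CPM in untreated libraries 1, 2 and 3 and at 35.1, 161 and 126 with ConA (−2.61 ± 0.21, adjusted p = 1.4e-06). The groups did not overlap, and library 1 was the lowest in both. The naive T cell factor LEF1 (−1.46 ± 0.13), the glucocorticoid-inducible TSC22D3 (−1.66 ± 0.17) and TXNIP, a brake on glucose uptake (−1.90 ± 0.33), fell. The gene that rose was the cyclin CCND2 (1.94 ± 0.24), which drives entry into the cell cycle. It is also counted below among the cyclins that rose. KLF2, a factor of resting T cells, carries no symbol in the deposited tables and has no value here.

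Genes of the antigen receptor apparatus fell more often than they rose. Of 29 genes of the T cell receptor complex and its signalling 14 fell and 3 rose (3 and 0 without the block), with a median of −0.37. Over all tested genes 21.2% fell, and 8.57% without the block. Of the CD3 chains among the T cell markers, CD3G fell (−0.64 ± 0.17), while CD3D (−0.12 ± 0.15) and CD3E (−0.26 ± 0.12) were not called. CD5, which dampens receptor signals, stood at 237, 270.3 and 203 CPM and 92.8, 101 and 98.0 with ConA (−1.27 ± 0.12), with no overlap. The kinase LCK fell by 0.99 ± 0.14, and the phospholipase PLCG1 by 1.14 ± 0.13 (no block, adjusted p = 0.06). The kinase FYN and the ubiquitin ligase CBLB were 2 of the 3 that rose, and each lost its call without the block (0.3 and 0.48) and without untreated 2 (0.078 and 0.079), untreated 3 (0.053 and 0.076) or number 2 (0.12 and 0.16). The calls were also lost without number 3 for FYN (0.052) and without ConA 2 for CBLB (0.11). The count that rose was 0 without untreated 2 or number 2 and 1 without untreated 3 or ConA 2. T cell markers, several of which belong to this list, moved with it: 8 of 13 fell and 0 rose (2 fell without the block), and their summed level was 1840.1, 1444 and 1125 CPM in untreated libraries 1, 2 and 3 and 1275, 955 and 755 with ConA. In bulk RNA, fewer cells of a type and less RNA of these genes per cell cannot be told apart, and the part of the markers in this result was not tested.

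The machinery that builds ribosomes had the highest median of the 37 pathway lists. Of 46 genes of ribosome biogenesis 44 rose and 0 fell (42 without the block), with a median of 1.58. NPM1, an abundant nucleolar chaperone (ENSCAFG00000016912, CanFam3.1 chromosome 4, 40756465 to 40770175, 13 annotated exons), stood at 419, 622 and 538 normalised CPM in untreated libraries 1, 2 and 3 and at 2278, 3358 and 2086 with ConA (2.29 ± 0.15, adjusted p = 6.9e-08). Of its exon reads 72% were unique to it, so part of its level may belong to copies. NCL, which binds nascent ribosomal RNA, was at 629.6, 722 and 588 CPM and at 2822, 2434 and 1839 with ConA (1.86 ± 0.13), and FBL, the methyltransferase that marks ribosomal RNA, at 87.8, 95.2 and 94.5 and 384, 462 and 331 (2.07 ± 0.14). All 3 genes were higher in each pair, with no overlap of the groups. MYC, a transcription factor that drives this programme, was one of the 2 members that did not pass: its levels were 160.1, 113 and 125 CPM and 198, 146 and 139.8 with ConA, a log2 difference of 0.28 ± 0.12 (adjusted p = 0.065, and 0.040 by DESeq2).

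Ribosomal protein genes moved less. Of 44 genes 31 rose and 0 fell with the block and 5 rose without it, with a median of 0.51, and 20 rose without number 2. RPS12 was at 502, 1233 and 1167 CPM and at 1139, 3883 and 2575 with ConA (1.34 ± 0.15). It was higher in each pair, while the groups overlapped, and it was not called without the block (adjusted p = 0.098). RPS3A, of the small subunit, rose by 0.70 ± 0.15 with the block and not without it (adjusted p = 0.39). RPL4 has 2% unique reads, so its value is uncertain.

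Translation factors rose in 24 of 28 and fell in 0 (15 and 0 without the block), with a median of 1.01. The initiation factor subunits EIF2S1 (50.7, 43.4 and 46.7 CPM to 199.9, 149 and 142, 1.79 ± 0.15) and EIF2S2 (1.82 ± 0.14, 78% unique reads) bring the first transfer RNA to the ribosome. Enzymes that charge transfer RNAs rose in 19 of 21 and fell in 0, with a median of 1.07, among them FARSB (1.71 ± 0.15), EPRS (1.54 ± 0.16) and SARS (1.33 ± 0.15). The mitochondrial ribosome rose in 35 of 37 genes (22 without the block), with a median of 0.94. MRPL39 stood at 40.1, 70.2 and 79.6 CPM and 131, 265 and 190.2 with ConA (1.63 ± 0.15), MRPL20 rose by 1.42 ± 0.13 and MRPS12 by 1.49 ± 0.16. Of 16 genes of mitochondrial protein import 14 rose and 1 fell, with a median of 1.21. The small chaperones of the space between the mitochondrial membranes, TIMM8A (10.7, 9.05 and 10.6 CPM to 57.5, 56.5 and 44.5, 2.38 ± 0.19) and TIMM10 (2.11 ± 0.15), led them, and the cytosolic cochaperone TOMM34 fell by 0.86 ± 0.18. In these genes the ConA libraries lay above the untreated ones, or below them in TOMM34.

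Folding and degradation of proteins rose as well. Of 12 subunits of the cytosolic chaperonin and its partner prefoldin 11 rose and 0 fell, with a median of 1.39. The chaperonin subunit CCT4 was at 120.2, 138 and 133 CPM and at 608, 624 and 432 with ConA (2.07 ± 0.14), CCT5 rose by 1.90 ± 0.14 and CCT8 by 1.89 ± 0.17. The chaperones HSP90AB1 (2.01 ± 0.14), HSP90AA1 (2.29 ± 0.17) and HSPA8 (1.63 ± 0.13) were among the largest gains in CPM. HSP90AA1 stood at 380.1, 753 and 356 normalised CPM in untreated libraries 1, 2 and 3 and at 1892, 5078 and 1212 with ConA, higher in number 2 than in the others in both groups. All 29 genes of the proteasome list rose (25 without the block), with a median of 1.18 and a range of 0.47 to 1.89. The subunits PSMB9 and PSMB10, listed with antigen presentation instead, were not called (0.06 ± 0.12 and −0.08 ± 0.13). PSMD1, a scaffold of the regulatory particle, was at 82.4, 162 and 168 CPM and at 328, 794 and 426 with ConA (1.89 ± 0.18), and the core subunit PSMB1 rose by 1.56 ± 0.14.

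Secretory pathway genes were less uniform. Of 25 folding and translocation genes of the endoplasmic reticulum 17 rose and 0 fell with the block, 2 rose without it and 11 without number 1, with a median of 0.59. MANF, a stress-induced secreted factor, was at 87.5, 148 and 226 CPM and at 237, 469 and 389 with ConA (1.30 ± 0.16). The list median was 0.87 and 0.72 in pairs 1 and 2 and 0.17 in pair 3. Of 6 plasma cell markers 3 rose and 1 fell (0 and 0 without the block). The count that rose was 1 without untreated 1 or number 2, and the count that fell 0 without untreated 2, number 2 or number 3. Their summed level was 279.7, 574 and 3038 CPM in untreated libraries 1, 2 and 3 and 608, 2851 and 4425 with ConA, and none of the 6 was at 0. Most of these sums came from JCHAIN, which had 4051, 5100 and 36068 counts untreated and 10327, 26535 and 47271 with ConA. MZB1 and DERL3 were not called. The part of these markers in the result on secretory genes was not tested. Splicing and nuclear transport genes rose in 28 of 31 and fell in 0, with a median of 0.97. RANBP1, a regulator of the transport GTPase RAN, was at 41.3, 40.7 and 43.2 CPM and at 258, 224 and 192 with ConA (2.42 ± 0.15), RAN rose by 1.96 ± 0.15 and the RNA-binding HNRNPAB by 2.16 ± 0.16.

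Enzymes that supply nucleotides mostly rose. Of 13 purine genes 9 rose and 0 fell, with a median of 0.97. NME1, which completes nucleoside triphosphates, stood at 75.9, 84.1 and 115 normalised CPM in untreated libraries 1, 2 and 3 and at 632, 624 and 518 with ConA (2.71 ± 0.19) and did not overlap between groups. IMPDH2, which commits purines to guanine nucleotides, rose by 1.86 ± 0.16 and ATIC, which closes the purine ring, by 1.76 ± 0.13. Of 15 pyrimidine genes 10 rose and 1 fell (10 and 0 without the block), with a median of 1.27. TYMS, which makes thymidylate, was at 31.1, 42.2 and 38.9 CPM and at 159, 154 and 162 with ConA (2.09 ± 0.16), with the ConA libraries nearly level. The thymidine kinase TK1 rose by 2.47 ± 0.29 and UMPS, which makes uridylate, by 1.32 ± 0.13. CTPS1, which makes CTP and is known to serve lymphocyte proliferation, was the member that fell, from 733, 1232 and 1089 CPM to 499, 728 and 688 (−0.66 ± 0.11, adjusted p = 0.00023), without overlap of the groups. It was not called without the block (adjusted p = 0.12).

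One-carbon metabolism, which feeds purine and thymidylate synthesis, rose in 7 of 13 genes and fell in 2 (7 and 0 without the block), with a median of 0.93. The 2 mitochondrial enzymes SHMT2 (43.2, 74.7 and 71.6 CPM to 255, 589 and 345, 2.62 ± 0.18) and MTHFD1L (31.5, 29.0 and 32.7 to 184, 161 and 134, 2.36 ± 0.14) led it. The cytosolic counterpart SHMT1 fell by 0.46 ± 0.13, a call lost without the block (adjusted p = 0.29) and without untreated 2 (0.078), ConA 2 (0.079) or number 2 (0.22). The count that fell was 1 without untreated 2, untreated 3, ConA 2 or number 3 and 0 without number 2. Of 10 polyamine genes 8 rose and 0 fell (5 without the block), with a median of 0.82, led by spermidine synthase, SRM (24.0, 37.0 and 61.4 CPM to 216, 349 and 209, 2.71 ± 0.35). Of 16 amino acid transporters 6 rose and 4 fell (2 fell without the block or number 2), with a median of 0.17. Over all tested genes 21.3% rose and 21.2% fell, so the falls were near the general share. The glutamine carriers SLC38A5 (2.08 ± 0.23) and SLC1A5 (1.59 ± 0.20) rose, and the taurine carrier SLC6A6 fell by 0.91 ± 0.14 and the cationic amino acid carrier SLC7A6 by 1.33 ± 0.23. The hexokinase HK2, first enzyme of glycolysis, rose from 6.75, 2.39 and 6.40 CPM to 90.8, 39.9 and 37.5 (3.42 ± 0.27).

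Genes of the dividing cell mostly rose. Of 28 DNA repair and checkpoint genes 17 rose and 1 fell, with a median of 1.07. CLSPN, which relays replication stress to the checkpoint kinase, stood at 1.17, 1.29 and 3.43 CPM and 25.1, 37.2 and 39.3 with ConA (4.21 ± 0.31). Untreated 3 was the highest untreated library and lay below every ConA library. ATM, the kinase that senses double-strand breaks, fell by 1.02 ± 0.20. Of 22 chromatin genes 16 rose and 1 fell (9 and 0 without the block), with a median of 0.62. The chromatin assembly subunit CHAF1A (2.47 ± 0.16), the remodeller HELLS (2.49 ± 0.18) and the architectural factor HMGA1 (2.26 ± 0.17) rose, and the demethylating enzyme TET1 stood at 4.46, 1.42 and 3.72 CPM and 0.424, 2.06 and 0 with ConA. Its fall (−2.48 ± 0.87) was lost without the block (0.18) and without untreated 1, untreated 3, ConA 1, ConA 3, number 1 or number 3 (0.081 to 0.30).

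Among 25 cyclins, their kinases and inhibitors 13 rose and 6 fell (6 and 4 without the block), with a median of 1.04, and 8 rose without ConA 1 and 7 without number 1. CDK4, the kinase of the first cell cycle phase, was at 55.5, 60.5 and 67.2 CPM and at 290.0, 266 and 209 with ConA (2.04 ± 0.17). The inhibitor of that kinase, CDKN2D, fell from 22.8, 15.7 and 14.8 CPM to 4.27, 4.84 and 4.12 (−2.001 ± 0.23), and the phosphatase CDC25B by 1.82 ± 0.20. The proliferation antigen MKI67 stood at 10.3, 5.04 and 53.7 CPM untreated and 31.5, 34.5 and 62.7 with ConA, high in both libraries of number 3. Its rise (1.45 ± 0.43, adjusted p = 0.029) was lost without the block (0.54) and without untreated 1, ConA 1, ConA 2, number 1 or number 2 (0.065 to 0.22).

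Apoptosis genes moved both ways. Of 21 genes 8 rose and 4 fell (2 and 1 without the block), with a median of 0.20. Over all tested genes 21.3% rose and 21.2% fell (9.93% and 8.57% without the block). BCL2A1, a survival protein induced by NF-kappaB, was at 190.0, 229 and 461 CPM and at 764, 734 and 797 with ConA (1.45 ± 0.21), and the death receptor FAS rose by 1.29 ± 0.21 and the death-promoting BCL2L11 by 1.199 ± 0.22, both calls lost without the block (0.078 and 0.052). BMF, a death-promoting relative of BCL2L11, fell by 1.88 ± 0.44. Without untreated 2 or ConA 1 5 rose, and 1 or 2 fell without untreated 2, ConA 1, ConA 2, number 1 or number 2.

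Receptors of phagocytes fell furthest. Of 20 such genes 16 fell and 1 rose (9 and 0 without the block, 2 rose without number 2), with a median of −2.64. STAB1, a scavenger receptor of macrophages (ENSCAFG00000009273, CanFam3.1 chromosome 20, 37249746 to 37276535, 69 annotated exons), stood at 186, 340.4 and 217 normalised CPM in untreated libraries 1, 2 and 3 and at 22.6, 26.7 and 19.8 with ConA (−3.44 ± 0.34, adjusted p = 4.9e-05). The groups did not overlap, and the ConA libraries were close to each other. MSR1, which takes up modified lipoproteins, was at 65.6, 40.6 and 10.9 CPM and at 7.12, 2.54 and 2.84 with ConA (−3.11 ± 0.29). CSF1R, the receptor for the growth factor of macrophages, fell by 2.51 ± 0.26 (no block, adjusted p = 0.057). The lectin CLEC5A was the member that rose (11.9, 5.63 and 15.8 CPM to 44.4, 25.8 and 28.7, 1.64 ± 0.28; no block, adjusted p = 0.0504). SPP1, a secreted matrix protein of macrophages outside this list, fell from 1003, 455 and 178 CPM to 19.0, 20.5 and 16.1 (−4.54 ± 0.65, adjusted p = 0.0015), a call lost without number 2 (0.057).

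Other genes of innate immunity followed. Of 15 complement genes 8 fell and 1 rose (4 fell without the block or without number 2, and 2 rose without number 3), with a median of −1.91. C1QA, a chain of the first component, was at 44.0, 101 and 37.0 CPM and at 6.85, 7.13 and 3.20 with ConA (−3.41 ± 0.37), and properdin, CFP, fell by 2.23 ± 0.32. The protease C1S was the member that rose, from 0.0900, 0.323 and 0.698 CPM to 1.96, 3.01 and 0.995, a call lost without the block (0.12) and without ConA 1 (0.078), number 1 (0.12) or number 2 (0.092). Of 24 sensors of microbes and their adaptors 12 fell and 1 rose (5 and 0 without the block, 6 fell without number 2), with a median of −0.96. CLEC7A, a receptor for fungal glucans, was at 5.81, 5.30 and 2.09 CPM and at 0.0770, 0 and 0.142 with ConA, and MYD88, the adaptor of Toll-like receptors, fell by 1.22 ± 0.14. The RNA sensor DDX58 fell by 1.55 ± 0.21. The adaptor TICAM1 was the one that rose, a call lost without the block (0.13) and without untreated 2, ConA 1, number 1 or number 2 (0.074 to 0.14).

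Of 30 lysosomal genes 12 fell and 1 rose, with a median of −0.51, a count that moved widely: 2 fell without the block, 20 without untreated 1 and 3 without number 2. The acid lipase LIPA was at 220.4, 68.3 and 24.7 CPM and at 23.8, 11.97 and 8.74 with ConA (−2.44 ± 0.33; no block, adjusted p = 0.054). The glycogen-degrading GAA fell by 0.94 ± 0.15. LAMP2, of the lysosomal membrane, was the one that rose (0.43 ± 0.16), a call lost without the block (0.38) and without untreated 1, untreated 2, ConA 1, ConA 2, number 1 or number 2 (0.051 to 0.32). Of 10 monocyte markers 8 fell and 0 rose (4 fell without the block). CSF1R, CD163, FCGR1A and ITGAM among them are also counted among the phagocyte receptors, and CLEC4E among the microbial sensors. Their summed level was 1244, 882 and 775 CPM in untreated libraries 1, 2 and 3 and 606, 301 and 319.6 with ConA, and FCN1 was at 0 in all 6 libraries. Neutrophil markers, which share S100A12 with the monocyte markers, fell in 7 of 8 (3 without the block), with sums of 335, 311 and 456 CPM and 113, 125 and 162. Their part in the results on innate genes was not tested. B cell markers fell in 8 of 11 (2 without the block, 5 without untreated 2, 4 without number 2), with sums of 1589, 2742 and 2036 CPM and 1442, 2491 and 2048. Most of these sums came from CD79A, which was not called (0.07 ± 0.12). It had 29501, 29124 and 28008 counts untreated and 33487, 26179 and 24980 with ConA. NK cell markers fell in 4 of 7 (2 without the block, untreated 1, untreated 2, ConA 1, number 1 or number 2) and rose in 1 (0 without the block, untreated 2, untreated 3, ConA 1, ConA 3, number 1 or number 3). Among the rarer types dendritic cell markers fell in 3 of 6 (1 without untreated 3, ConA 1 or number 1), red cell markers in 4 of 7 (1 without the block, ConA 1 or number 1) and platelet markers in 2 of 6 (1 without the block and in most fits that left out a library or number, 0 without number 2). Mast cell and basophil markers fell in 1 of 3 (0 without number 1), and stromal and endothelial markers fell in 1 of 4 and rose in 0 (1 rose without untreated 1 or number 1). Over all tested genes 21.2% fell, and 8.57% without the block. With so few markers tested, the falls among platelet, mast cell and stromal markers were near that share.

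Of 25 antigen presentation genes 11 fell and 2 rose, with a median of −0.37 (5 and 0 without the block, 7 down without untreated 3 or number 2). DLA-DOA, a modulator of peptide loading on class II molecules, was at 55.7, 135 and 65.6 CPM and at 20.5, 38.9 and 32.0 with ConA (−1.42 ± 0.15). DLA-DRA, the class II alpha chain, was at 2044, 2078 and 1654 and 1582, 1310.4 and 1136 (−0.52 ± 0.13), a call lost without the block (0.20) and without number 2 (0.090). The proteasome activator subunit PSME2 was one of the 2 that rose (0.88 ± 0.15; no block, adjusted p = 0.18), and 1 rose without untreated 1, untreated 2, ConA 1, ConA 2, number 1 or number 2.

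Interferon-related genes moved both ways. The list joined genes induced by either type of interferon and members of the receptors' signalling, and 21 of 33 fell while 11 rose (16 and 8 without the block, 6 rose without number 2), with a median of −1.18. OAS1, which senses double-stranded RNA, stood at 189, 343 and 120.1 normalised CPM in untreated libraries 1, 2 and 3 and at 17.1, 38.9 and 26.1 with ConA (−2.93 ± 0.26, adjusted p = 6.5e-06). OAS3 (−2.14 ± 0.19), IFIT2 (−3.00 ± 0.34), which binds viral RNA, and MX2 (−2.15 ± 0.24), which blocks viral entry to the nucleus, fell too. The ConA and untreated libraries did not overlap in any of these 4 genes. Those that rose include the adhesion molecule ICAM1 (59.6, 73.9 and 110.3 CPM to 294, 267 and 228, 1.69 ± 0.22) and the kinase JAK2 (0.74 ± 0.14), which transmits the interferon gamma signal.

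Autophagy genes fell in 12 of 26 and rose in 1 (8 and 0 without the block, 2 rose without untreated 3 or number 3), with a median of −0.26. TFEB, a transcription factor of lysosomal and autophagy genes, was at 29.2, 45.0 and 28.7 CPM and at 14.02, 13.8 and 12.2 with ConA (−1.33 ± 0.18), and SESN1, a sensor that restrains growth signalling, fell by 1.39 ± 0.17. ATG3, an enzyme of autophagosome formation, was the member that rose (0.58 ± 0.13; no block, adjusted p = 0.057). Of 23 cytoskeleton genes 11 rose and 3 fell (4 and 0 without the block, 6 rose without number 1), with a median of 0.33. The tubulin TUBA1A was at 537, 1075 and 991 CPM and at 1531, 3109.7 and 2115 with ConA (1.37 ± 0.15, 86% unique reads), and profilin, PFN1, rose by 0.71 ± 0.12. The actin cross-linker ACTN1 fell by 1.34 ± 0.23 (no block, adjusted p = 0.064).

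Some of the firmest changes lay outside these lists. DLC1, which inactivates small GTPases, was at 3.11, 2.39 and 5.00 CPM and at 37.7, 70.1 and 78.0 with ConA (4.11 ± 0.22, adjusted p = 6.2e-08), and the cytokine gene LTA at 8.55, 10.2 and 14.8 and 108, 156 and 155 (3.66 ± 0.21). CD320, which takes up vitamin B12 carried by transcobalamin, was at 5.81, 7.56 and 5.70 and 51.6, 74.4 and 46.9 (3.16 ± 0.20). DNPH1, which cleaves modified deoxynucleotides, rose by 3.11 ± 0.20. Each of these had no overlap between groups. Among the falls, LY6E, an interferon-inducible membrane protein, was at 273, 306 and 226 CPM and at 63.6, 63.6 and 60.2 with ConA, where the 3 libraries were nearly level (−2.09 ± 0.13, adjusted p = 6.4e-08). PSEN2, a catalytic subunit of gamma-secretase, was at 161, 162 and 158 and 34.1, 39.1 and 48.0 (−1.999 ± 0.13). COL5A1, a fibrillar collagen chain, fell from 31.8, 16.8 and 13.96 CPM to 0.655, 0.872 and 0.497 (−4.96 ± 0.31). RGS14, a regulator of G protein signals, fell by 2.20 ± 0.14, the cyclic AMP phosphodiesterase PDE3B by 2.10 ± 0.16, and ARHGAP45, a GTPase-activating protein, by 1.68 ± 0.13. The endocytic receptor LRP1 fell by 3.07 ± 0.18, in each pair, with library 1 the highest in both groups and an adjusted p of 0.053 without the block. ABHD5, an activator of fat breakdown, rose by 2.38 ± 0.23 with 63% unique reads (no block, adjusted p = 0.1).

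Intron reads, which come mostly from unspliced RNA, were tested as a second readout of the same libraries. Of 12052 genes with both tests 4639 (38.5%) were called on intron reads. Of the 2729 genes that rose on exon reads and had an intron test 1623 were called up on intron reads too and 23 down. Of 2691 that fell 1624 were called down and 25 up. The change differed between exon and intron reads of the same gene in 1092 genes (9.06%): the exon change was higher in 636 (5.28%) and lower in 456 (3.78%). The intron share of all gene reads differed by −3.58, −4.58 and −1.72 percentage points, ConA minus untreated, in the 3 pairs.

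Some lists leaned to one side of this difference. The exon change exceeded the intron change in 11 of 37 mitochondrial ribosome genes and 0 had the reverse, with medians of 0.94 on exon and 0.37 on intron reads. The chaperonin list gave 6 and 0 of 12 (medians 1.39 and 0.56), the proteasome 10 and 1 of 29 (1.18 and 0.53) and ribosome biogenesis 13 and 1 of 46 (1.58 and 1.09). Ribosomal proteins gave the reverse, with the exon change lower in 23 of 44 and higher in 2, and medians of 0.51 on exon and 0.95 on intron reads. Overlaps with other annotated genes were not looked up for ribosomal proteins, and RPL4 had few unique reads. Part of their exon or intron values may therefore belong to other genes.

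**Figure D4:**
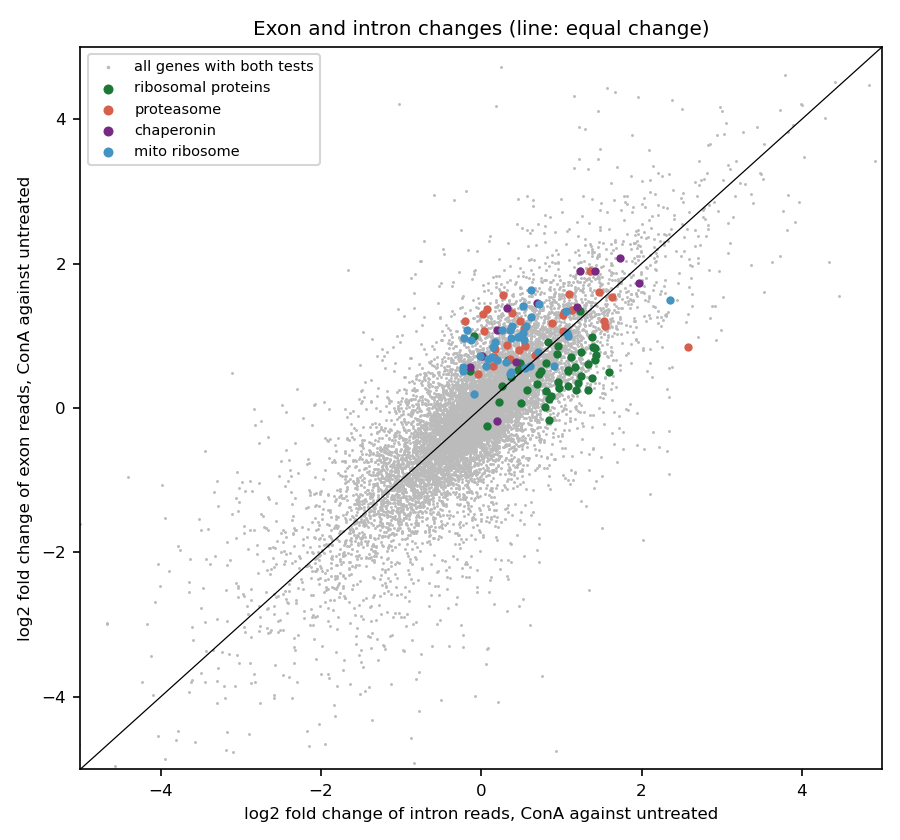
Log2 fold change of exon reads (vertical axis) against that of intron reads (horizontal axis), ConA against untreated, for genes with both tests and with members of 4 lists coloured. Ribosomal proteins lie mostly below the line of equal change (23 of 44 called below it), and proteasome, chaperonin and mitochondrial ribosome genes mostly above it. Genes beyond 5 on either axis are not drawn.

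Single genes showed the difference at its clearest. FAM98B, part of the transfer RNA ligase complex, rose on exon reads (1.46 ± 0.13) and fell on intron reads (−0.53 ± 0.17, adjusted p = 0.023). The small nuclear ribonucleoprotein SNRPD3 (1.59 ± 0.14 and −0.84 ± 0.13) and SKP1, a ubiquitin ligase subunit (0.89 ± 0.12, no block adjusted p = 0.06, and −0.76 ± 0.12), did the same. The proteasome subunit PSMA3 rose on exon reads (1.21 ± 0.13) and was not called on intron reads (−0.20 ± 0.11). In the other direction, NOP53, a ribosome assembly factor, fell on exon reads (−0.88 ± 0.11) and rose on intron reads (1.16 ± 0.17), and so did FLOT1, a membrane scaffold (−0.94 ± 0.14 and 0.85 ± 0.14). ALAS2, the red cell enzyme of heme synthesis, fell on exon reads (−1.19 ± 0.30), a call lost without the block (0.34), ConA 1 (0.053) or number 2 (0.071), and rose on intron reads (2.11 ± 0.38). FLOT1 overlaps the annotated gene TUBB and PSMA3 a copy of U6 RNA, both on the other strand. NOP53 overlaps 2 annotated genes on its own strand, the small nucleolar RNA gene SNORD23 and ENSCAFG00000026143, which counting by strand would not separate. Whether counting used strand is not given in the sources used here, so values of all 3 genes may hold reads of their neighbours. ALAS2, FAM98B, SKP1 and SNRPD3 overlap no other annotated gene.

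The size of the response differed between numbers in few genes. The test of the difference called 29 of 13358 (0.217%), against 1485 at an unadjusted p under 0.05. It used all 12 libraries and pooled those with ConA, with or without ALA, against those without ConA. It thus assumed that ALA did not alter the ConA response by number. The log2 differences given here are from the ConA and untreated pairs alone. In 27 of the 29 the change in pair 3 was the smallest of the 3 in size. The exceptions, LAG3 and EGR1, were smallest in pairs 2 and 1. IL17A had log2 differences of 5.17 and 4.28 in pairs 1 and 2 and −0.37 in pair 3, where the untreated library already had 112 CPM (adjusted p of the difference = 0.0041). Its average change did not pass (2.79 ± 1.41, adjusted p = 0.16). It passed without number 3 (4.66) and by DESeq2 (0.011). CDC6, which loads the replicative helicase, had differences of 6.05, 5.38 and 3.05 (adjusted p = 0.014), and ORC1, of the origin recognition complex, by 5.46, 5.46 and 3.21 (0.014). In both genes untreated 3 was the highest untreated library, at 3.02 and 3.32 CPM, and the ConA libraries stood at 40.4, 20.9 and 25.9 CPM for CDC6 and 44.5, 33.4 and 31.6 for ORC1. The average rise of ORC1 was not called without number 2 (adjusted p = 0.073), nor the fall of FN1 (0.11). CDC6 overlaps TOP2A, ENSCAFG00000016099 and a copy of U6 RNA on the other strand. It also overlaps RARA on its own strand, which counting by strand would not separate. FN1 overlaps ATIC on the other strand. SPP1 had log2 differences of −5.71, −4.46 and −3.46 (0.0052), from untreated levels of 1003, 455 and 178 CPM. Fibronectin, FN1, stood at 553, 107 and 32.9 CPM untreated and 10.9, 6.10 and 5.97 with ConA, with differences of −5.66, −4.11 and −2.44 (0.023).

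**Figure D5:**
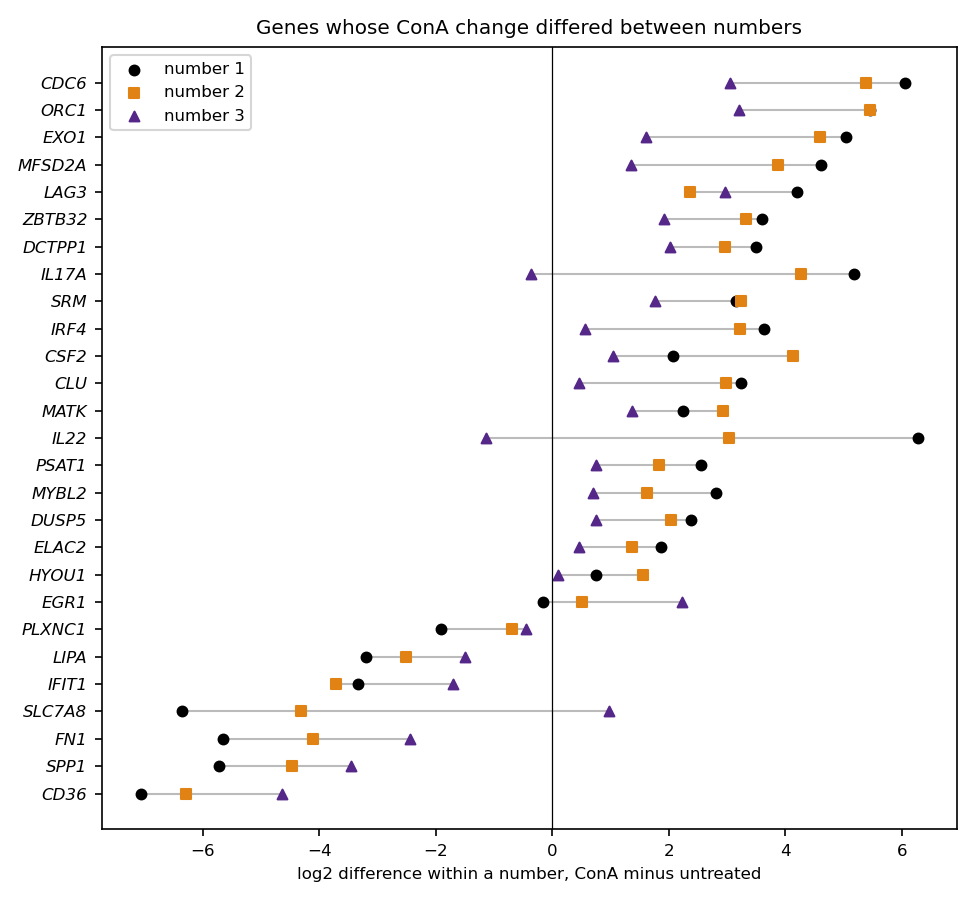
Log2 difference between ConA and untreated in pairs 1, 2 and 3 (symbols) for the 27 genes with a symbol whose ConA change differed between numbers. In IL17A and IL22 pair 3 lies below 0 and pairs 1 and 2 above it, and in SLC7A8 pair 3 lies above 0 and the others below.

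In the main comparison the other 6 libraries added only to the estimate of the spread and the block. The same model gave a second ConA contrast from them, ConA with ALA against ALA alone. There 4022 genes were called (30.1%), 2109 up (15.8%) and 1913 down (14.3%). Of the 2839 genes that rose with ConA alone 1896 (66.8%) were called up there and 1 down, and of the 2837 that fell 1577 (55.6%) were called down and 3 up. These genes were chosen by their call with ConA alone, so sizes are not compared between the contrasts. Whether a gene's response differed with ALA was not tested here.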

How the data were processed

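PBMC RNA was selected for poly(A), made into libraries with a NEBNext Ultra II kit and sequenced as 75 bp paired reads, per the labels' protocols. The authors deposited per-gene tables for each library with counts of total exon, unique exon and intron reads, and TPM and RPKM values, per the file headers. The deposited TPM and RPKM were not used. The genome build was CanFam3.1 and reads were converted with bcl2fastq, per the submitters' processing notes. Aligner, counter and use of strand: not given in the sources used here.

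From the exon counts of 13358 genes that passed filterByExpr, of 29822 listed (17892 with a symbol), edgeR 4.0.16 with limma 3.58.1 in R 4.3.3 fitted all 12 libraries with TMM factors, group means and the replicate number as a block, by a robust quasi-likelihood F-test with Benjamini-Hochberg adjustment at 0.05. Normalised CPM divide counts by TMM-scaled library sizes. Intron reads were fitted alike, exon and intron reads jointly for the read type by ConA term, and number-by-ConA terms in a further model. Same-numbered libraries deviated together: correlations of deviations from group means were 0.404 to 0.651 in the 3 ConA and untreated pairs and −0.454 to 0.115 between their other numbers, so the numbers were taken to pair the libraries. The tests were also run on simulated counts that held number effects of the form the block assumes. That run cannot show whether the block holds, and its outcome is not reported here.

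The text names the 10 largest gains and losses in CPM, up to 3 members of each of 37 gene lists by smallest p and up to 2 against the list's direction, 5 genes in each direction in no list, the extremes of the number and intron tests, and 10 chosen genes. Genes named only for the state of untreated 3, for overlaps or as list members discussed beside these were chosen after their values were seen. The members and lists, 11 of them of cell markers, were chosen with earlier results of these data known. Alternatives were DESeq2 1.42.0, other scaling, filters, libraries and unique reads. Summaries used Python 3.11.15, numpy 2.4.6, pandas 2.3.3, scipy 1.17.1 and matplotlib 3.10.9. Promoter sequences were not analysed here. A few genes that the naming rule picks are not reported here.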

Additional observations from a re-analysis of the deposited data

Results flagged for a closer look

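In 12 named genes the ConA change differed between the 3 numbers by the test of the difference itself (edgeR, adjusted over 13358 genes). That test used the libraries with ALA too, while the differences below are from the ConA and untreated pairs. IL17A had log2 differences of 5.17, 4.28 and −0.37 in pairs 1, 2 and 3 (adjusted p = 0.0041). SPP1 had −5.71, −4.46 and −3.46 (0.0052). The chaperone-like secreted protein CLU had 3.24, 2.98 and 0.47 (0.0059). ORC1 had 5.46, 5.46 and 3.21, CDC6 had 6.05, 5.38 and 3.05, and LAG3 had 4.21, 2.36 and 2.97 (each 0.014). The amino acid carrier SLC7A8 had −6.35, −4.31 and 0.97, and the early response factor EGR1 −0.16, 0.52 and 2.22 (both 0.014). SRM had 3.16, 3.23 and 1.77 (0.018). FN1 had −5.66, −4.11 and −2.44 (0.023). IRF4 had 3.63, 3.22 and 0.57, and LIPA −3.20, −2.50 and −1.49 (both 0.038).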

How the results depend on the processing

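Calls depended most on the pairing. Without the replicate block 1326 genes rose and 1145 fell, and with only the 6 ConA and untreated libraries and no replicate block 870 rose and 744 fell. Leaving out 1 library or 1 number gave 1951 to 2816 that rose and 1659 to 2602 that fell. With only those 6 libraries and the block 2408 rose and 2293 fell, by DESeq2 2984 and 3029, with RLE factors 2867 and 2823, without a filter 2689 and 2643, and on unique reads 2831 and 2864. Of 191 named genes 141 kept their direction and side of the threshold without the block and 50 lost the call. TTI2, which was not called (−0.01), stood at 0.05 without untreated 3, 0.16 without ConA 3 and 0.15 without number 3, in a range of −0.093 to 0.16 over the fits that left out 1 library or number. Genes whose change differed between numbers were 29, and 31 with RLE factors or unique reads, and genes whose exon and intron changes differed 1092, 1160 at a mean of at least 50 intron counts and 852 with 6 libraries. With 3 libraries a group and 15131294 to 21517099 exon reads in each, the lowest of 4 groups by abundance had the fewest calls (17.8%), and a gene that was not called is not shown to be unchanged.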

Other observations

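The share of exon reads in the 100 most abundant genes was 33.9 ± 7.70% (SD, n = 3) in untreated and 37.8 ± 11.1% (n = 3) in ConA libraries (exact permutation test, two-sided, p = 0.5, where 0.1 is the smallest value this design allows, and an exact sign-flip test over pairs 0.25, the smallest it allows). Without mitochondrially encoded genes the means were 28.3% and 29.0%. In 4 groups of genes by length of annotated exons, from short to long, 803 rose and 452 fell, then 770 and 639, 688 and 789, and 578 and 957, with median log2 changes of 0.12, −0.05, −0.11 and −0.18. The dispersion (biological coefficient of variation) was 0.217 with the number as a block and 0.422 without it.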
